A study of Mus musculus with 9 samples.

Results

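miR-22 was followed through both arms of its hairpin, mmu-miR-22-3p and mmu-miR-22-5p (miR-22-3p and miR-22-5p from here on), which are 2 of the 1915 mature miRNA names in a count table of mouse milk fat, 828 of them with at least 1 count. The members were the rows that carry those names, 1 row per arm. The hairpin was chosen by its ratio of 5p to 3p counts, which differed between diet means in an earlier look at these libraries, so the diet contrast is given here as a description, with no test of its own. Milk came from 9 ICR (CD1) dams nursing their first litter, on lactation day 10. In the high-fat group 4 dams ate a diet with 60% of energy as fat and 5.24 kcal per g. In the control group 5 dams ate a diet with 10% of energy as fat and 3.85 kcal per g. Both diets held 7% of energy as sucrose, and both were fed from 4 weeks of age for 4 weeks before mating and then through pregnancy and lactation. ICR is an outbred stock, so dams also differ genetically, and before mating each shared a cage with another dam of its diet group. Sequencing libraries of small RNA were made from the fat of each dam's milk after a wash, and milk fat carries cytoplasm of the secretory cells. Total counts ran between 1905838 and 3897109 in high-fat libraries and between 837817 and 2750482 in control libraries.

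A miRNA hairpin is cut by Drosha and Dicer into a short duplex, from which 1 strand is usually kept in an Argonaute protein and guides the repression of matching transcripts, while the other is mostly degraded. In mir-22 the kept strand is the 3p arm, a widely expressed miRNA that is abundant in human milk fat. It is known to repress the Tet enzymes, which oxidise methylated DNA. In mice it has been linked to heart growth, blood cell formation and fat storage.

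Both arms and the hairpin are shown because the results rest on counting the arms apart. The capitals mark the seed, bases 2 to 8, in each mature arm, and the mature arms, 5p before 3p, in the hairpin.
miR-22-3p: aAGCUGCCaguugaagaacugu
miR-22-5p: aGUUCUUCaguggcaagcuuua
mir-22 hairpin: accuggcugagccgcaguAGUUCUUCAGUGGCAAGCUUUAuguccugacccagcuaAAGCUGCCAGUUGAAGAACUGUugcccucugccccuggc
The sequences are those of RefSeq on GRCm38, with both arms matched by name. The hairpin lies on the plus strand at chr11:75463716-75463810, with the 5p arm at chr11:75463734-75463755 and the 3p arm at chr11:75463772-75463793. In the GENCODE M21 annotation it falls inside an exon of the non-coding host gene Mir22hg and inside an exon of a Tlcd2 transcript, and neither coding sequence nor UTR is annotated over it. Both arms are 22 bases long. In a minimum free energy fold, 19 of the 22 bases of the 5p arm were paired with a base of the 3p arm.

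No other mature mouse miRNA in the RefSeq set shared the seed of either arm. Against 1737 other mature entries, the longest run of identical bases was 9 for the 3p arm, with miR-3966, and 10 for the 5p arm, with miR-146a-3p. Among transcripts of 55341 gene names, the full mature sequences, and likewise every 18-base word within them, occurred only in Mir22, Mir22hg and Tlcd2, which overlap at this place.

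miR-22-3p was among the abundant miRNAs of milk fat, and its level spread widely between dams of the same diet. It made up 0.880%, 0.857%, 0.516% and 1.11% of the counts in high-fat libraries 1 to 4. In control libraries 1 to 5 it made up 0.779%, 1.04%, 0.455%, 0.875% and 0.420%. High-fat library 3 and control libraries 3 and 5 were low, high-fat library 4 and control library 2 were high, and the diets overlapped over nearly their whole ranges. The mean share was 0.841% ± 0.245 in high-fat milk (SD, n = 4) and 0.714% ± 0.270 in control milk (SD, n = 5). These are shares of all miRNA reads in bulk milk fat, so fewer cells that contribute miR-22 and less miR-22 per cell cannot be told apart.

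Counting error was a small part of that spread. The 95% Wilson interval was 1.10% to 1.13% in high-fat library 4 and 0.406% to 0.434% in control library 5, and such intervals cover counting error only. On the log2 scale of CPM (counts scaled by library size, with library sizes adjusted by trimmed mean of M values, TMM, factors), the SD within a diet was 0.54, against 0.014 due to counting. Of the 21 tested names whose mean level lay within 2-fold of miR-22-3p, 20 had a smaller SD within a diet, and their median was 0.30. Its rank by count was between 18 and 32 in high-fat libraries and between 20 and 36 in control libraries.

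miR-22-5p, the passenger arm, was far less abundant and lower in most high-fat libraries. It had 486, 490, 241 and 330 counts in high-fat libraries 1 to 4 and 400, 242, 546, 345 and 180 counts in control libraries 1 to 5. Scaled by TMM factors, the levels were 191, 129, 122 and 179 CPM in high-fat libraries 1 to 4. In control libraries 1 to 5 they were 230.2, 198, 198, 220.1 and 214 CPM. On this scale all 4 high-fat libraries lay below all 5 controls, and the control libraries were close together. The mean was 155 ± 34.9 CPM in high-fat milk (SD, n = 4) and 212 ± 14.2 CPM in control milk (SD, n = 5).

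That separation of the diets depended on the scaling. As a share of the plain library total, miR-22-5p made up 0.0208%, 0.0126%, 0.0119% and 0.0173% of high-fat libraries 1 to 4, and 0.0237%, 0.0194%, 0.0199%, 0.0216% and 0.0215% of control libraries 1 to 5. High-fat library 1 then lay above control libraries 2 and 3, and only high-fat libraries 2, 3 and 4 were lower than every control. High-fat library 1 had the largest TMM factor, 1.09, and also the largest share of leukocyte miRNAs, described further on. With median-of-ratios size factors the diets were again separate. By TMM-scaled CPM, 1 of the 2 arms had all high-fat libraries below all controls, beside 1.6% of the 312 tested names. By share of the library total neither arm did, beside the same 1.6%.

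**Figure D1:**
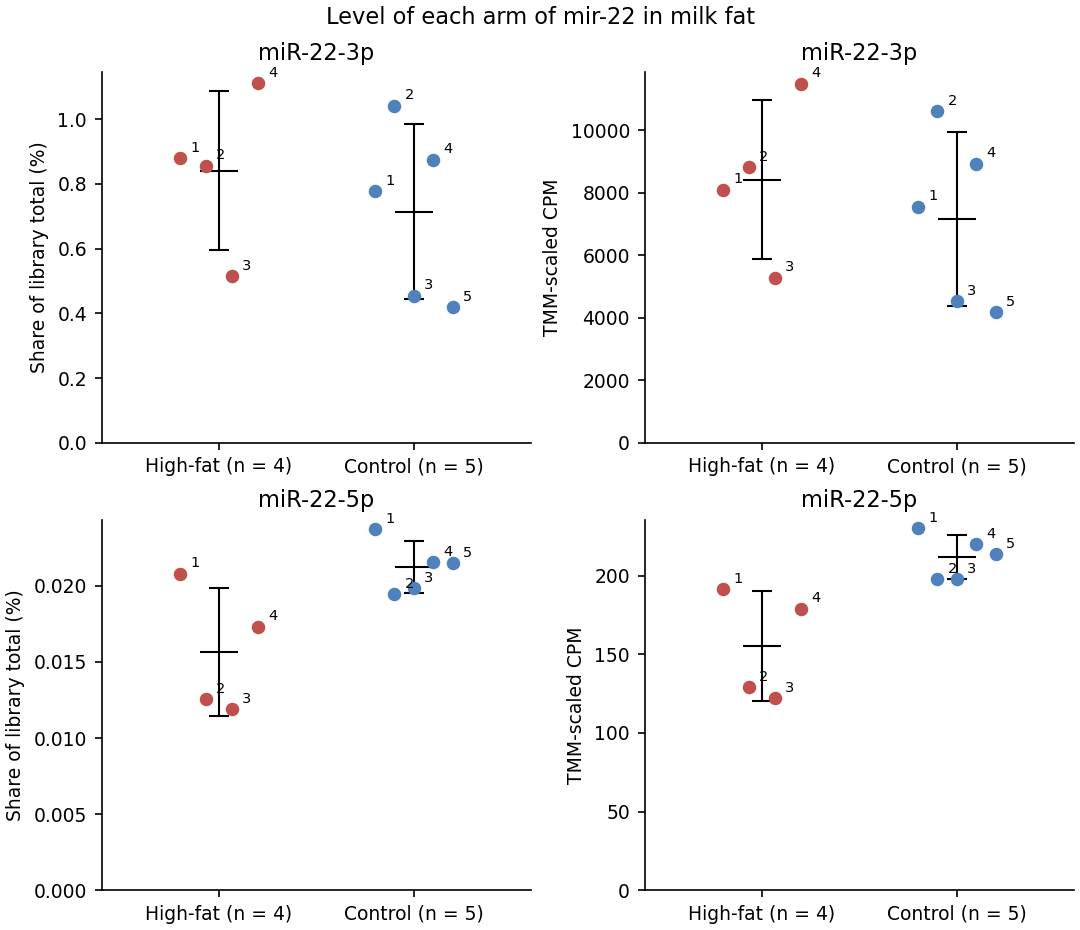
Level of miR-22-3p (top) and miR-22-5p (bottom) as a percentage of the library total (left) and as TMM-scaled CPM (right). Points are single libraries with their replicate number, and bars are the mean ± SD of 4 high-fat and 5 control libraries. The 3p arm overlaps between diets on both scales, while the 5p arm is separate as scaled CPM, with 191 CPM at most in high-fat libraries and 198 CPM at least in controls, and overlaps as a share of the total.

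In the limma-voom fit over all tested names, miR-22-3p had a log2 fold change of 0.28 ± 0.31 (SE), high-fat over control, and miR-22-5p one of -0.48 ± 0.18. The median over all 312 tested names was 0.0040. In size, 155 names had a larger log2 fold change than miR-22-3p and 89 a larger one than miR-22-5p. Neither arm was called at an adjusted p of 0.05 by limma-voom, beside 0% of the 312 names. At an unadjusted p below 0.05 the same fit gave 32 names, 10.3%, miR-22-5p among them, which is no test of an arm chosen with these data. By limma-trend 2 names were called at the adjusted threshold, neither of them an arm of mir-22. The value of the 3p arm was smaller than its SE, and it moved with single libraries by less than that SE. It was 0.10 ± 0.34 without high-fat library 4, 0.15 ± 0.35 without high-fat library 2, 0.14 ± 0.31 without control library 3 and 0.13 ± 0.30 without control library 5. It was 0.43 ± 0.31 without high-fat library 3 and 0.44 ± 0.30 without control library 2.

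In order of mean share over the 9 libraries, miR-22-3p was number 27 of the 312 tested names and miR-22-5p number 113. The next above miR-22-3p were miR-182-5p and miR-26b-5p, with mean shares of 0.856% and 0.824% against 0.770% for miR-22-3p. The next below were miR-429-3p at 0.650% and miR-141-3p at 0.603%, both of the epithelial miR-200 family. All 4 differed from miR-22-3p by less than its SD over the 9 libraries, 0.252 percentage points. Around miR-22-5p, at 0.0187%, the next above were miR-34c-5p at 0.0205% and miR-345-5p at 0.0203%, and the next below miR-24-2-5p at 0.0179% and miR-125b-5p at 0.0155%. These too lay within the SD of miR-22-5p, 0.00408 percentage points.

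The 3p arm outnumbered the 5p arm in every library, by a margin that varied from dam to dam. There were 42.3, 68.1, 43.3 and 64.1 counts of the 3p arm for each count of the 5p arm in high-fat libraries 1 to 4. In control libraries 1 to 5 there were 32.8, 53.6, 22.9, 40.6 and 19.5. High-fat libraries 2 and 4 were the most 3p-sided, control libraries 3 and 5 the least, and control library 2 was more 3p-sided than high-fat libraries 1 and 3, so the diets overlapped. The ratio uses 2 counts of the same library, so no scaling of library size enters it.

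On the log2 scale, with 5p over 3p, these values averaged -5.73 ± 0.36 in high-fat milk (SD, n = 4) and -4.98 ± 0.59 in control milk (SD, n = 5). The difference was -0.75 ± 0.34 (SE, limma), high-fat minus control. Its parts were the 5p arm, with mean log2 CPM of 7.25 in high-fat and 7.73 in control milk, and the 3p arm, with 12.99 in high-fat and 12.71 in control milk. The 5p arm made up 1.89% ± 0.459 of the counts of both arms in high-fat milk and 3.25% ± 1.25 in control milk. In single libraries the 95% Wilson interval of this share was 1.32% to 1.58% in high-fat library 2, the lowest, and 4.22% to 5.61% in control library 5, the highest.

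**Figure D2:**
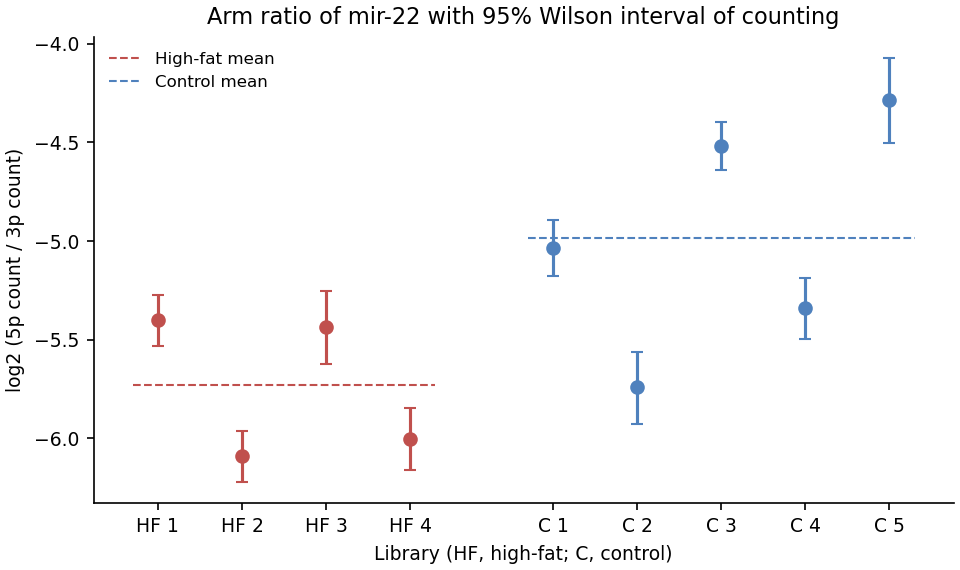
log2 of the 5p count over the 3p count of mir-22 in each library (HF, high-fat; C, control), with the 95% Wilson interval of counting error and each diet's mean as a dashed line. High-fat libraries lie between -6.09 and -5.40 and controls between -5.74 and -4.28, so the diets overlap, and the spread between dams exceeds the counting intervals.

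The mir-22 pair was not called at an adjusted p of 0.05 by limma, beside 0% of the 101 arm pairs in which both arms passed the filter on low counts. At an unadjusted p below 0.05 the same fit gave 7 pairs, 6.93%, mir-22 among them. No pair had all high-fat ratios below all control ratios. Over the 101 pairs the median difference was 0.0066, 13 pairs had a difference of larger size than mir-22, and 5 of these a more negative one. The difference of mir-22 kept its sign with each library left out, between -0.94 and -0.57. The hairpin was chosen by this ratio in the same libraries. Neither the kept sign nor its place among the 7 pairs is therefore support for a difference.

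**Figure D3:**
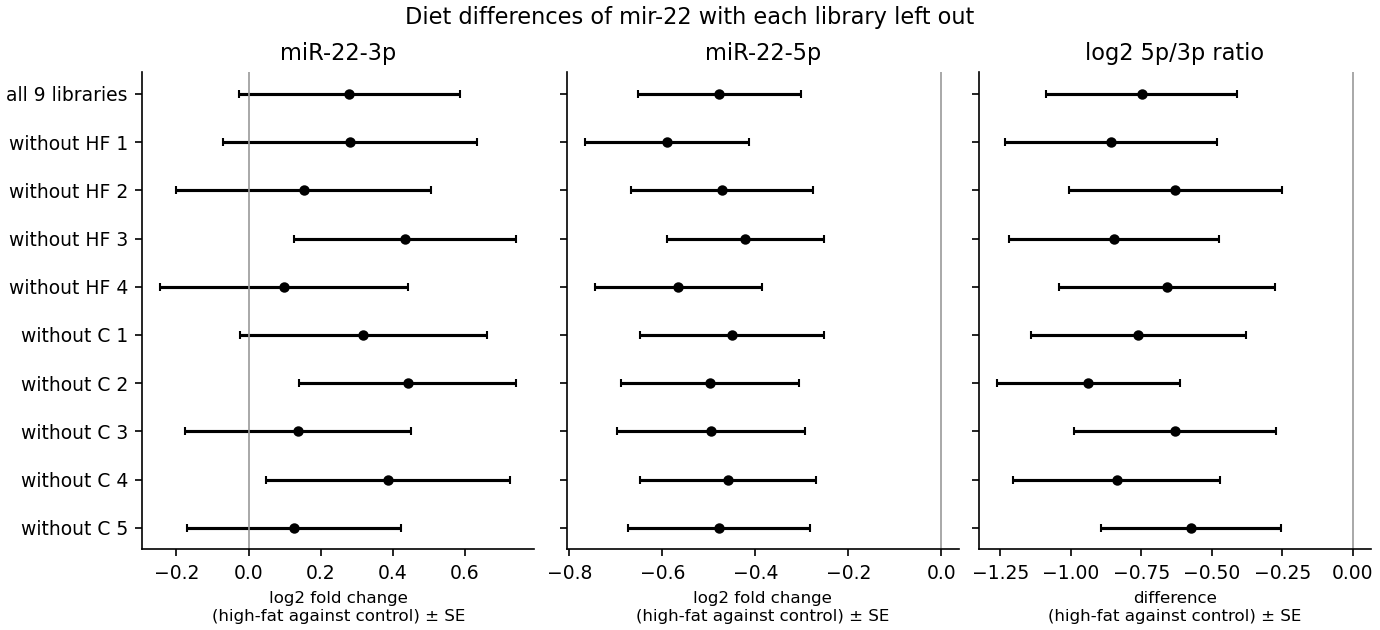
Log2 fold change of each arm (limma-voom) and difference in the log2 ratio (limma), high-fat against control, with all 9 libraries and with each left out in turn (HF, high-fat; C, control). Bars are standard errors. The 5p value stays between -0.59 and -0.42 and the ratio between -0.94 and -0.57, while the 3p value moves between 0.10 and 0.44.

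Among all hairpins, mir-22 was one of the more 3p-sided. It was number 18 of the 101 pairs from the 3p end, with a mean log2 ratio of -5.32 over the 9 libraries. The 3p arm led in every library in 30 pairs, the 5p arm in 57, and the lead changed between libraries in 14. The pairs next to mir-22 toward the 3p end were mir-200a at -5.36, mir-221 at -5.54 and mir-141 at -5.85. Toward the 5p end they were mir-24-2 at -4.86, mir-210 at -4.40 and mir-140 at -4.34. These neighbours were not equally steady. The ratio of mir-200a had an SD of 0.11 in high-fat and 0.16 in control milk, and that of mir-140 an SD of 0.44 in high-fat and 1.12 in control milk. The SD of mir-22 within a diet, 0.51, was near the median over all pairs, 0.54.

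**Figure D4:**
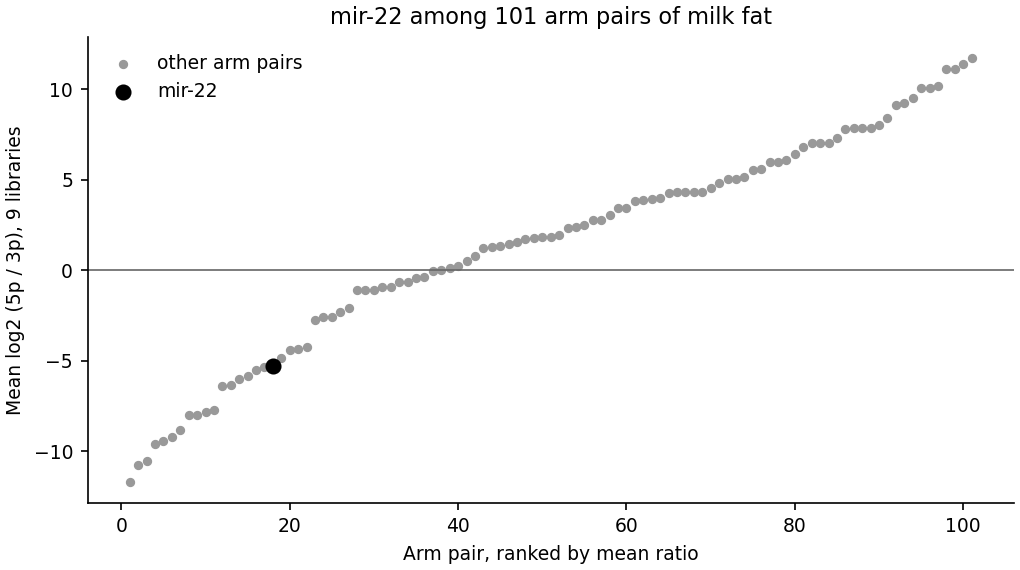
Mean log2 ratio of 5p to 3p counts over 9 libraries for the 101 arm pairs, ranked from the most 3p-sided. mir-22 is the black point at rank 18, with a mean of -5.32, and the line marks equal counts of both arms.

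Within a diet, the spread of the ratio came mainly with the 3p arm. The variance of log2 CPM within a diet was 0.296 for miR-22-3p and 0.0513 for miR-22-5p, 5.76 times as large for the 3p arm, and the variance of the difference between arms was 0.258. After removal of the diet means, the log2 levels of the arms had a Pearson r of 0.36 over 9 libraries (two-sided exact permutation within diet, p = 0.352, adjusted p = 0.704 over 2 relations). Spearman's rho was 0.25 (exact permutation p = 0.537, adjusted p = 0.859). Without control library 5 and high-fat library 3, the farthest from the median of the 3p arm, r was 0.12. Within high-fat libraries alone r was 0.63 and within control libraries 0.11. A relation between the arms was not detectable with 9 dams.

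The ratio was also set against sequencing depth. Its within-diet deviations had a Pearson r of -0.13 with the log2 library total (two-sided exact permutation within diet, p = 0.779, adjusted p = 0.779). Spearman's rho was -0.083 (exact permutation p = 0.859, adjusted p = 0.859). Without control libraries 3 and 5, the farthest in depth, r was -0.12. The sign of r turned without control library 5, at 0.37, and without high-fat library 2, at 0.037.

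The names whose levels followed miR-22-3p most closely were found among the 294 tested names with a count in every library. By Pearson r of log2 CPM over the 9 libraries they were miR-101a-3p at 0.93, miR-30e-5p at 0.92, miR-210-3p at 0.90, miR-542-3p at 0.88 and miR-101c at 0.85, where the median over all names was -0.055. With diet means removed the values were 0.94, 0.92, 0.96, 0.87 and 0.84 in that order. miR-101a-3p, which represses the histone methyltransferase Ezh2, measured 4501, 5104, 4393 and 6338 CPM in high-fat libraries 1 to 4. In control libraries 1 to 5 it measured 4446, 5826, 3288, 4587 and 2758 CPM (miR-101a-3p). High-fat library 4 and control library 2 were again the highest and control libraries 3 and 5 the lowest. The lowest r was that of let-7a-5p, a repressor of growth genes such as the Ras genes, at -0.86. let-7a-5p measured 11445, 14026, 16688 and 10818 CPM in high-fat libraries 1 to 4 and 10617, 9119, 16016, 12530 and 17409 CPM in control libraries 1 to 5. It was high in the 3 libraries in which miR-22-3p was low. These r values describe the same 9 libraries from which the names were picked, and CPM of abundant names within a library share 1 total.

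**Figure D5:**
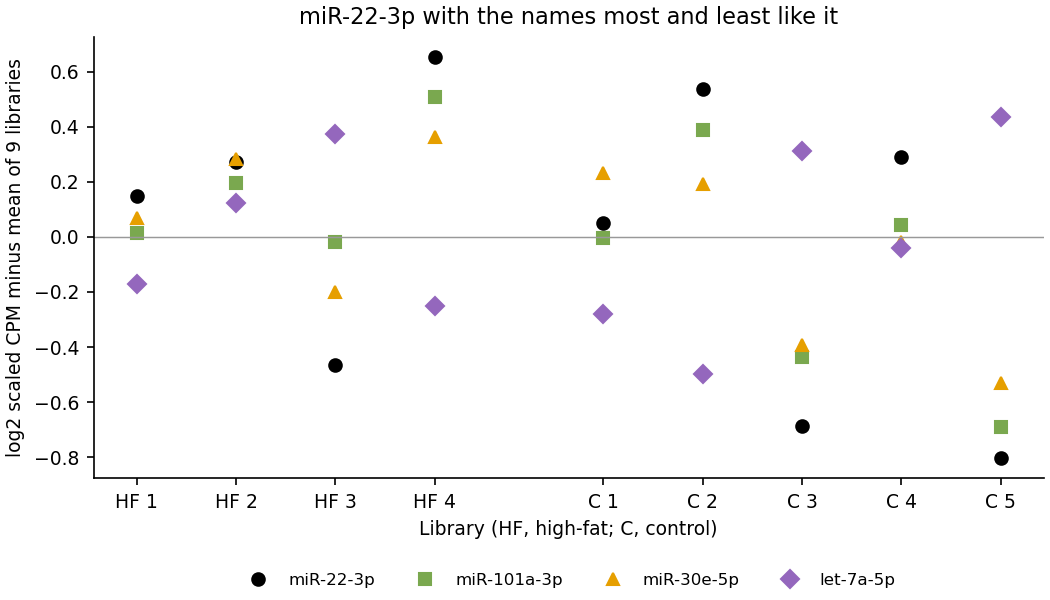
log2 TMM-scaled CPM minus the mean of 9 libraries for miR-22-3p, for miR-101a-3p and miR-30e-5p, the names most like it, and for let-7a-5p, the least like it, in each library (HF, high-fat; C, control). High-fat library 3 and control libraries 3 and 5 are low for miR-22-3p and high for let-7a-5p.

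Other names followed the passenger arm. By the same measure those most like miR-22-5p were miR-148a-5p at 0.86, miR-503-5p at 0.81, miR-27b-5p at 0.81, miR-143-5p at 0.80 and miR-125a-3p at 0.80, and the least like was let-7g-5p at -0.85. With diet means removed they were 0.68, 0.66, 0.69, 0.76, 0.53 and -0.83 in that order. The r over 9 libraries includes the difference between diets, and all 5 most like names had log2 fold changes below 0, as miR-22-5p had. Once diet means were removed, names outside these 5 lay higher, such as miR-141-5p at 0.88, and let-7g-5p was no longer the lowest. miR-148a-5p, itself the minor arm of the abundant milk miRNA miR-148a, measured 451, 377, 423 and 545 CPM in high-fat libraries 1 to 4 and 576, 536, 533, 651 and 547 CPM in control libraries 1 to 5. High-fat library 4 lay above control libraries 2 and 3, so its diets overlapped. None of the 5 names most like one arm was among the 5 most like the other, which unrelated sets of 5 out of 294 names would usually also give.

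Other miRNAs of the processes in which miR-22 is known to act were described by lists, which were set with earlier results of these libraries known. Of 8 tested miRNAs that repress Tet enzymes, 7 had fold changes above 0 and 1 below, none was called, and the median was 0.24. This list holds close relatives, such as miR-26a-5p with miR-26b-5p and miR-101a-3p with miR-101b-3p, so its members are not separate counts. Its most abundant members were miR-26a-5p at 0.23 ± 0.18 (log2 fold change ± SE, limma-voom), miR-29a-3p at 0.04 ± 0.13 and miR-26b-5p at 0.41 ± 0.15. Of 16 tested miRNAs of insulin and lipid metabolism, 6 had fold changes above 0 and 10 below, none was called, and the median was -0.06. They were led by miR-27b-3p at -0.05 ± 0.14, miR-143-3p at 0.0049 ± 0.29 and miR-27a-3p at -0.07 ± 0.12. Of the 3 other miRNAs listed for lying in an exon of their host transcript, miR-21a-5p, a growth-promoting miRNA, lay below 0 at -0.55 ± 0.17, and miR-205-5p at 0.30 ± 0.29 and miR-155-5p at 0.60 ± 0.87 above, with none called. Over all 312 tested names the median was 0.0040 and 0% were called.

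Marker miRNAs of cell types were described beside the labelled source. Their lists were set with earlier results known. The secretory epithelium list holds some of the most abundant names of these libraries, so its share is no check of the source. The 10 miRNAs of the secretory epithelium list, led by miR-146b-5p, miR-148a-3p and miR-30a-5p, made up between 50.0% and 53.4% of high-fat libraries and between 47.7% and 53.0% of controls. This sum hides members that moved apart. Log2 fold changes were above 0 for 4 and below 0 for 6, and the largest in size was that of miR-141-3p, 0.77 ± 0.21 (SE, limma-voom). The 6 leukocyte miRNAs, led by miR-223-3p, miR-142a-5p and miR-142a-3p, made up 1.15% and 0.289% of high-fat libraries 1 and 3, 0.00808% and 0.0253% of high-fat libraries 2 and 4, and between 0.0357% and 0.0767% of controls. The 4 erythrocyte miRNAs, led by miR-451a, ran between 0.00201% and 0.0650% in high-fat and between 0.00227% and 0.0158% in control libraries. The striated muscle list, led by miR-133a-3p in high-fat milk and by miR-499-5p in control milk, ran between 0.000231% and 0.00979% in high-fat and between 0.000436% and 0.00137% in control libraries, with miR-206-3p, miR-208a-3p and miR-208b-3p at 0 in every library. Within it miR-499-5p averaged 3.64e-05% of high-fat and 0.000402% of control counts, and miR-133a-3p 0.00193% of high-fat and 0.000263% of control counts. No member of the muscle list passed the filter on low counts. In high-fat milk the SD exceeded the mean for both, at 4.86e-05 for miR-499-5p and 0.00353 for miR-133a-3p (percentage points). In both the erythrocyte and the muscle list the highest value was that of high-fat library 3, which also had the lowest miR-22-3p and miR-22-5p of the high-fat group. Controls did not repeat this for the erythrocyte list. Control library 5, with the lowest miR-22-3p of all libraries, had the lowest erythrocyte share of the controls, 0.00227%. The endothelial list ran between 0.00105% and 0.00291% in high-fat and between 0.000643% and 0.00220% in control libraries, and the liver list, mostly miR-122-5p, between 0.00126% and 0.00456% in high-fat and between 0.00206% and 0.00926% in control libraries. The stromal list, which was almost all miR-143-3p, ran between 1.17% and 2.59% in high-fat and between 1.04% and 1.93% in control libraries, and its highest value was that of high-fat library 4, the library with the most miR-22-3p. miR-199a-3p, another member of the stromal list, was instead highest in high-fat library 3, at 291 CPM against 28.8 CPM in high-fat library 4. The part of these cells in the miR-22 values was not tested. Without high-fat libraries 1 and 3, the log2 fold change was 0.62 ± 0.36 for miR-22-3p and -0.46 ± 0.20 for miR-22-5p (limma-voom), and the difference in log2 ratio was -1.06 ± 0.43 (limma). Only high-fat libraries 2 and 4 then remained in that group. The libraries left out were the less 3p-sided of the group and had less miR-22-3p as scaled CPM. Leaving them out therefore had to enlarge the ratio difference and the 3p value, which says nothing about the part of these cells.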

How the data were processed

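The authors deposited a table of raw read counts per pair of precursor and mature miRNA, and each count column was assigned through the sample name in its head. The submitters' processing notes name cutadapt 1.9.1 and the build GRCm38. For aligner, counting rule, miRBase release and the kit's random bases, the methods were not given in the sources used here. Counts were taken as reads, not molecules. Commas were removed from 833 cells of the deposited counts, which kept an automatic check from reading the columns as counts, so no count model was used and limma-voom took its place.

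The highest row per mature name and library was kept. Each arm of mir-22 has 1 row. A name entered the tests with at least 5.25 CPM, which is 10 counts in the median library, in 4 libraries, and 15 counts in all. limma 3.58.1 in R 4.3.3 fitted voom-weighted log2 CPM with diet as the only term, with TMM factors (30% of log ratios and 5% of levels trimmed) and Benjamini-Hochberg adjustment. Arm ratios were log2 of counts plus 0.5 and were fitted with limma. The fits were run on simulated data with changes larger than those of mir-22, which does not show how well they find changes of its size. Correlations used all 2880 permutations within diet. Hairpins were folded with ViennaRNA 2.7.2. No 2 libraries of a diet agreed within sampling noise (lowest chi-square per degree of freedom 50.2).

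The members and lists were chosen with earlier results of these data known. In all, 10 lists are reported, and 1 further list of the design is not reported here. Named miRNAs were the arms, their 5 most and 1 least like names, their neighbours in level and ratio, and the 3 most abundant members of each list. Outside this rule, miR-141-5p, miR-199a-3p, miR-206-3p, miR-208a-3p and miR-208b-3p were also named, as were miR-3966 and miR-146a-3p for their shared runs of bases. Alternatives were total counts, median-of-ratios factors, no filter, limma-trend, quality weights, summed rows, the replicate number as a block, a pseudocount of 1, another filter on arm pairs, and leaving out libraries. Dams are the replicates. Cage mates, batches and dates were not used here.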

Additional observations from a re-analysis of the deposited data

How the results depend on the processing

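The log2 fold changes of both arms and the difference in their ratio kept their direction under every alternative run and moved by less than the SD within a diet, and neither arm nor the pair was called under any of them. All alternatives used the libraries by which the hairpin was chosen, so the kept directions are no separate support. Leaving out each library in turn gave 0.10 to 0.44 for miR-22-3p, -0.59 to -0.42 for miR-22-5p and -0.94 to -0.57 for the ratio. The number of names called at an adjusted p of 0.05 was 0 by limma-voom, 4 with no filter on low counts, 2 by limma-trend, 2 with library quality weights, and between 0 and 4 with 1 library left out, where control library 5 gave the 4. The number of arm pairs called was 0 throughout. The causes were not tested. With the replicate number as a block over replicates 1 to 4, 3 names were called, and the values were 0.09 for miR-22-3p, -0.47 for miR-22-5p and -0.57 for the ratio. The labels give no pairing of dams by replicate number. Deviations of same-numbered libraries had correlations of 0.043, 0.053, 0.22 and -0.066. Of the 4 high-fat libraries, 2 correlated best with the control of their own number. So few libraries cannot decide whether the dams were paired. Leaving out each library gave 0.076 to 0.54 for the within-diet correlation of the arms and -0.55 to 0.37 for that of the ratio with depth, which turned to 0.37 without control library 5 and 0.037 without high-fat library 2. The 5p arm, with between 180 and 546 counts a library, limits the counting precision of the ratio.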
